A study of Mus musculus with 33 samples.

Results

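The MYC, MAX and MXD network was followed through 10 genes, Myc, Mycn, Max, Mxd1, Mxd3, Mxd4, Mxi1, Mnt, Mlx and Mga, of the 21671 genes in the deposited expression table. They were taken by gene symbol, from a list made with earlier results of these data known, and all 10 were found. Total RNA had been sequenced from 33 livers and liver nodules of C57BL/6 mice, in a study of MYC and β-catenin in liver tumorigenesis. In the day 4 arm, mice aged 6 to 8 weeks were injected with AAV8-TBG-CRE, a virus whose TBG promoter drives Cre recombinase in hepatocytes, and were killed after 4 days. This arm held 5 wild-type (WT) livers, 5 livers with the β-catenin allele beta-cat Ex3 (Ex3), 5 with R26-lslMYC, a MYC transgene at Rosa26 behind a stop that Cre removes (MYC), and 5 with both (MYC+Ex3). All 20 animals, WT included, received the Cre virus. In the tumour arm, 3 nodules came from Albeta-CreERT2/R26-lslMYC mice and 3 from Albeta-CreERT2/R26-lslMYC/beta-catEx3 mice (titled Alb-CreERT2), which carry, by that name, an albumin-driven Cre that 4-hydroxytamoxifen (4-OHT) activates. The labels give the nodules neither an age nor a treatment. The 7 livers beside them were from WT mice killed 4 days after 4-OHT, which carry no MYC allele, so genotype and tumour state cannot be told apart in this arm, nor can any difference in age. The labels do not say whether nodules came from separate animals, and the p-values below measure the spread between these samples.

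MYC and its relative N-MYC (from Mycn) are transcription factors that bind DNA only after pairing with MAX, and the paired proteins recognise a short DNA element called the E-box. MXD1, MXD3, MXD4, MXI1 and MNT compete for MAX, bind the same element and bring in SIN3 corepressors, while MGA pairs with MAX inside a Polycomb repressive complex. MLX resembles MAX and links the network to the glucose-responsive factors MLXIP and MLXIPL. In the adult liver MYC is low in resting hepatocytes, rises when the organ regenerates and is raised in many hepatocellular carcinomas.

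The E-box letters CACGTG, which read the same on both strands, were searched in RefSeq promoter windows of GRCm38.p6, from 250 bases before to 50 bases after each gene's start. Windows were found for 9 of the 10 genes (11 windows); Myc had none. The letters lay in windows of 4 of the 9 genes, Max, Mlx, Mnt and Mxd4. Of all 32851 windows 7.15% held them, which is a share of windows and not of genes, so these figures are not compared. These stretches of 30 bases are shown because the E-box is the element on which the network's proteins meet, with the E-box in capitals.
Max: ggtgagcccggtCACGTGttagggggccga
Mlx: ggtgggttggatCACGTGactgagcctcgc
Mnt: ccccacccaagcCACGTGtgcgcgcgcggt
Mxd4: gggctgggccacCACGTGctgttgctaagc
They lie at chr12:76962234-76962263 on the minus strand (Max), chr11:101087238-101087267 on the plus strand (Mlx), chr11:74830789-74830818 on the plus strand (Mnt) and chr5:34187912-34187941 on the minus strand (Mxd4). The first base of the E-box was at position -3 from the start of Max, -40 from Mlx, -123 from Mnt and -219 from Mxd4. Such a match describes letters, and binding was not measured.

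Levels are given as RPKM, read counts scaled by gene length and by a library total. The day 4 libraries held 3.75 to 7.31 M (mega) reads in genes and the tumour-arm libraries 6.65 to 9.82 M reads, but RPKM had been scaled to a total that was almost all in genes at day 4 (99.95% to 99.96%) and of which 22.2% to 29.6% was in genes in the tumour arm. Levels are therefore compared within an arm. All 8 hepatocyte markers examined were present in every group, with summed levels of 988 to 1919 RPKM at day 4 and 175 to 343 RPKM in the tumour arm. Keratinocyte keratins (Krt5, Krt14 and Krt17) summed above 1 RPKM in 3 of 5 WT, Ex3 and MYC+Ex3 livers but in 1 of 5 MYC livers, and a term for these libraries was called in 0 of the 10 network genes and in 25.9% of 13688 genes (limma, adjusted p under 0.05). MYC liver replicate 5 stood apart. It held Xist at 86.1 RPKM together with Ddx3y at 4.74 RPKM, whereas the 7 other livers with high Xist had at most 0.134 RPKM of Ddx3y.

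The network genes spanned a wide range of levels in liver. In WT day 4 livers Mxd4 was the most abundant, at 55.0 ± 12.96 RPKM (SD, n = 5), followed by Mlx at 41.8 ± 3.76, Max at 20.8 ± 1.33, Mga at 19.3 ± 2.80 and Mxi1 at 8.33 ± 1.79. Mxd1 (3.95 ± 0.802), Mnt (2.74 ± 1.14), Myc (2.57 ± 1.22), Mycn (1.03 ± 0.726) and Mxd3 (0.802 ± 0.284) made up the low end, where each gene's range overlapped that of the next. Mxd4 and Mlx, and Max and Mga, also overlapped in range. The 4-OHT livers gave the same 5 genes at the top in the same order, with Mxd4 at 11.9 ± 1.90 RPKM (SD, n = 7) and Max at 5.76 ± 1.06.

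With MYC switched on for 4 days, Max, Mxd3, Mxi1 and Mga rose and none of the 10 genes was called lower. The rises were largest for Mxd3, an antagonist that competes for MAX, and for Max itself. Against WT, 4 of 10 network genes were called (limma on log2(RPKM + 1), adjusted p under 0.05), all higher, where 22.3% of 13688 genes were called and 16.9% were called higher. The median log2 change was 0.37 over the 10 genes and 0.07 over all genes tested.

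Max, the shared partner, measured 19.9, 19.4, 22.9, 20.5 and 21.1 RPKM in the 5 WT livers. In the 5 MYC livers it measured 44.2, 36.7, 29.4, 45.8 and 39.1 RPKM, on 270 to 547 reads. Every MYC liver lay above every WT liver. The log2 change was 0.87 ± 0.115 (SE, limma adjusted p = 2.20e-05).

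Mxd3, an antagonist known to be expressed in dividing cells during DNA synthesis, stood at 1.00, 0.691, 1.02, 0.950 and 0.351 RPKM in WT livers, or 2 to 8 reads per library. In MYC livers it reached 6.00, 4.31, 3.33, 5.59 and 2.18 RPKM on 19 to 41 reads. The groups did not overlap, and the lowest value was that of MYC replicate 5. Its log2 change was 1.51 ± 0.201 (limma adjusted p = 2.26e-05) and 2.27 with a pseudocount of 0.1 in place of 1. Summed over 15 proliferation genes, levels ran from 97.8 to 116 RPKM in WT and from 389 to 772 RPKM in MYC livers, and the part of dividing cells in the change of Mxd3 was not tested. Mxd3 shares exon sequence on the opposite strand with Prelid1 in the GENCODE M21 annotation, and the strand setting of the authors' counting is not given in the sources used here. Prelid1 changed by 0.29 log2 units in the same comparison (limma adjusted p = 0.0113), from 93.2 ± 6.85 to 115 ± 11.5 RPKM.

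Mxi1, an antagonist that represses through SIN3, measured 7.08, 10.8, 9.68, 6.68 and 7.45 RPKM in WT and 12.3, 12.8, 9.84, 12.1 and 12.3 RPKM in MYC livers. The groups overlapped, since MYC replicate 3 at 9.84 RPKM lay below the highest WT liver. Its log2 change was 0.48 ± 0.130 (limma adjusted p = 0.0118).

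Mga, the large MAX partner of the Polycomb complex, rested on 1229 to 2414 reads in each of these livers. It measured 15.3, 18.4, 19.6, 20.3 and 23.0 RPKM in WT livers and 28.1, 26.5, 25.1, 27.2 and 22.7 RPKM in MYC livers, a log2 change of 0.41 ± 0.113 (limma adjusted p = 0.0118). The highest WT liver lay just above the lowest MYC liver, and the other values did not overlap. The calls of Mxi1 and Mga were lost after rescaling each library by its median ratio, at log2 changes of 0.38 and 0.31 (limma adjusted p = 0.0542 and 0.0923). They were also lost when only these 2 groups were fitted, at the same log2 changes of 0.48 and 0.41 (0.0596 and 0.0518), and among keratin-free libraries, at 0.46 and 0.53 (0.120 and 0.0776). Without MYC replicate 5 the same 4 genes were called, with log2 changes of 0.86 for Max, 1.68 for Mxd3, 0.47 for Mxi1 and 0.46 for Mga.

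The mouse Myc row itself was not called. It held 0.748, 2.71, 4.11, 2.98 and 2.30 RPKM in WT and 4.75, 3.12, 3.57, 3.72 and 4.81 RPKM in MYC livers, which overlapped. The log2 change was 0.55, with a 95% interval of -0.09 to 1.19, and 0.32 without WT replicate 1. The labels give neither the species of the transgene nor whether its reads fall in this row, so the row does not check the genotype. Mycn was at 0 to 0.585 RPKM in 4 MYC livers and at 9.43 RPKM (172 reads) in MYC replicate 5, the library that also carried both Xist and Ddx3y. In the 19 other day 4 libraries Mycn had at most 44 reads.

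The remaining antagonists and Mlx were not called in MYC livers. Mxd4 stayed the most abundant, at 55.3 ± 11.1 RPKM (log2 change 0.02, 95% interval -0.30 to 0.34), and Mlx was at 41.1 ± 3.98 RPKM (-0.03, -0.23 to 0.17). Mxd1 measured 3.69 ± 1.05 RPKM (-0.09, -0.43 to 0.25) and Mnt 3.62 ± 1.11 RPKM (0.32, -0.13 to 0.76). Of the 4 genes with the E-box letters shown above, Max was called and Mlx, Mnt and Mxd4 were not. Exon sequence is shared on the opposite strand by Mlx with Psmc3ip, by Mxi1 with Gm10197 and by Mxd4 with Gm42846. Psmc3ip rose from 1.65 ± 0.413 to 8.498 ± 3.35 RPKM (log2 change 1.78, limma adjusted p = 5.37e-06), a level far below that of Mlx.

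**Figure D1:**
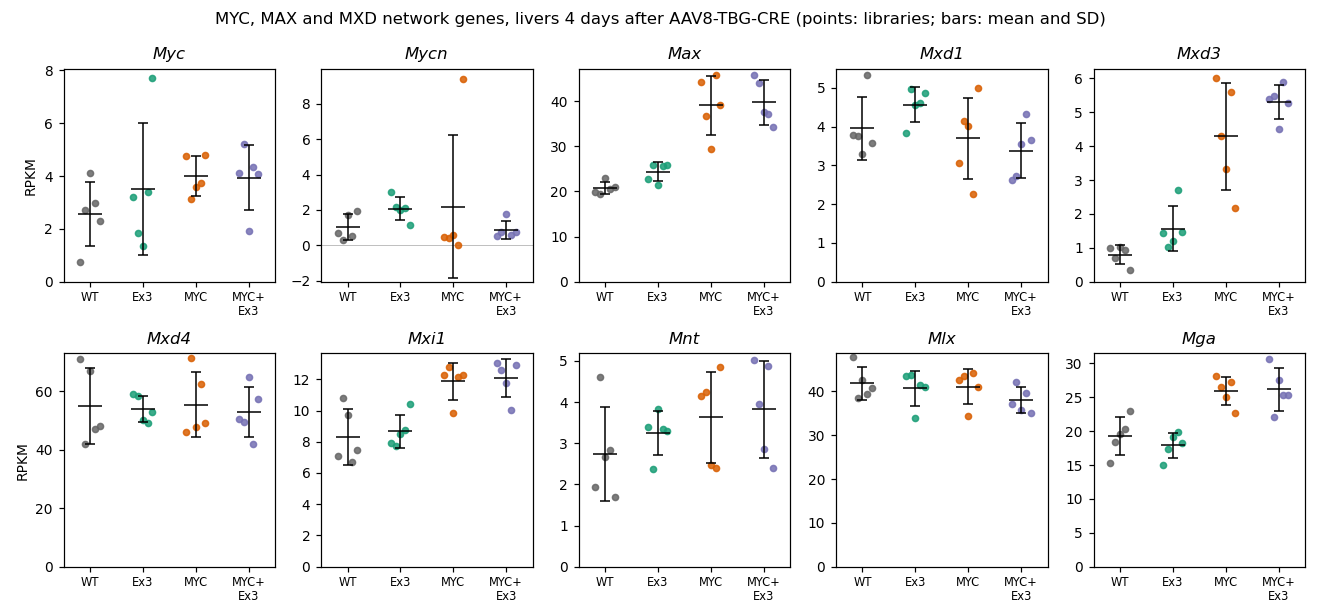
RPKM of each network gene (vertical axis, one scale per gene) in the 20 livers taken 4 days after AAV8-TBG-CRE, by genotype (horizontal axis), with points for libraries and bars for mean and SD. Max and Mxd3 in MYC and MYC+Ex3 livers lie above every WT liver, and 1 MYC liver holds Mycn at 9.43 RPKM.

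Activation of Ex3 alone, which asks for the response to β-catenin, called 0 of the 10 genes (limma, 0.132% of all genes called). At an unadjusted p under 0.05 there was 1, Mxd3, and limma voom on recovered reads also called 0. Mxd3 measured 1.43, 1.02, 1.21, 2.71 and 1.46 RPKM in Ex3 livers, each above the highest WT liver, on 7 to 17 reads. Its log2 change was 0.49 ± 0.201 (limma adjusted p = 0.813), and 0.88 with a pseudocount of 0.1 or 0.14 among keratin-free libraries. The proliferation genes summed to 103 to 281 RPKM in Ex3 livers, and their part in this value was not tested. Max was at 24.3 ± 2.13 RPKM in Ex3 livers (log2 change 0.22, 95% interval -0.02 to 0.46). Mycn was at 2.08 ± 0.665 RPKM on 13 to 44 reads (0.65, -0.27 to 1.56).

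MYC+Ex3 livers gave the same 4 calls against WT as MYC livers, again all higher, where 24.1% of all genes were called and 17.9% were called higher. These comparisons share the WT livers. Max measured 45.9, 44.1, 37.5, 37.2 and 34.2 RPKM, all above the WT range (log2 change 0.90 ± 0.115, limma adjusted p = 9.19e-06). Mxd3 measured 5.39, 5.47, 4.52, 5.89 and 5.27 RPKM on 22 to 52 reads, also all above WT (1.82 ± 0.201, limma adjusted p = 2.26e-06). Neither group of livers with MYC overlapped the WT livers for these genes. Mxi1 was at 12.1 ± 1.24 RPKM (0.50 ± 0.130, limma adjusted p = 0.00782) and Mga at 26.2 ± 3.16 RPKM (0.42 ± 0.113, limma adjusted p = 0.00934). Within the keratin-free libraries neither Mxi1 nor Mga was called (0.57 and 0.56, limma adjusted p = 0.0559 and 0.0621), nor within the keratin-bearing ones (0.45 and 0.33, 0.115 and 0.0646). The call of Mga was also lost after rescaling (0.35, limma adjusted p = 0.0621).

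Against Ex3 livers the MYC+Ex3 livers were higher in the same 4 genes (21.1% of all genes called, 16.4% higher). The log2 changes were 0.68 for Max (limma adjusted p = 0.000227), 1.33 for Mxd3 (8.30e-05), 0.44 for Mxi1 (0.0204) and 0.52 for Mga (0.00225). Mycn (-0.72, 95% interval -1.63 to 0.19) and Mxd1 (-0.36, -0.70 to -0.02, limma adjusted p = 0.128) had negative values and were not called, but Mycn was called lower when only these 2 groups were fitted (0.0222). The call of Mxi1 was lost after rescaling (limma adjusted p = 0.0596), among keratin-bearing libraries (0.328) and without Ex3 replicate 2 (0.0525), MYC+Ex3 replicate 1 (0.0533) or MYC+Ex3 replicate 2 (0.0502).

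Adding Ex3 to MYC called 0 of the 10 genes at day 4 (limma, 0.19% of all genes called), with 0 at an unadjusted p under 0.05 and 0 called by voom. The log2 difference between MYC+Ex3 and MYC livers was 0.03 for Max (95% interval -0.21 to 0.27) and 0.31 for Mxd3 (-0.11 to 0.73). A test of non-additivity between both alleles (the interaction term) called 0 network genes and 0% of all genes. At an unadjusted p under 0.05 it held 0 network genes and 132 of all genes, and voom called 0. Its estimates were -0.18 for Max (95% interval -0.52 to 0.15) and -0.18 for Mxd3 (-0.78 to 0.41).

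**Figure D2:**
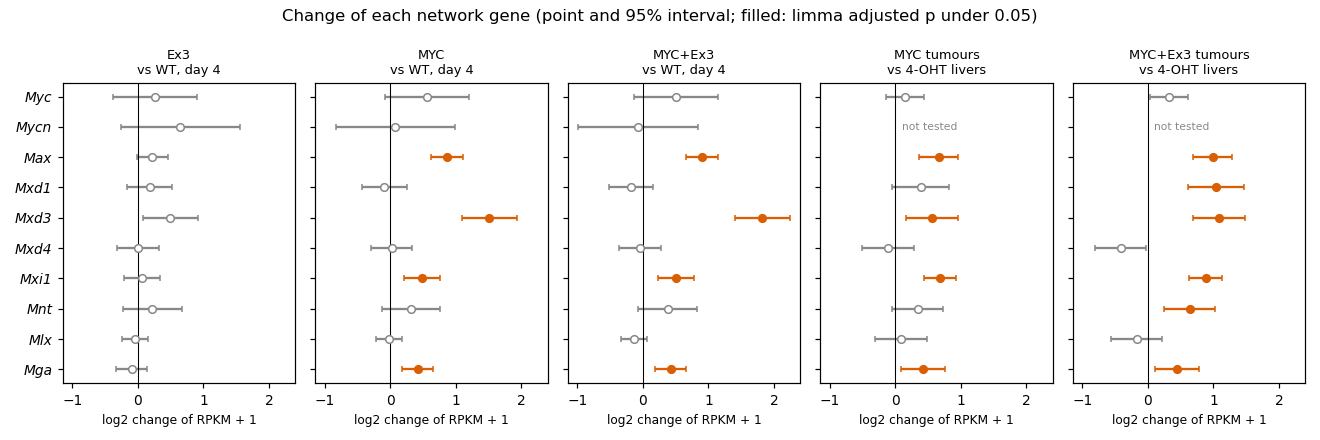
Change of each network gene on the log2(RPKM + 1) scale (horizontal axis) in 5 comparisons, with points for the estimate, bars for its 95% interval and filled points for limma adjusted p under 0.05. Max, Mxd3, Mxi1 and Mga are filled in each comparison with MYC, Mxd1 and Mnt are filled only in MYC+Ex3 tumours, and Mycn was not tested in the tumour arm.

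In the MYC tumours Max, Mxi1, Mxd3 and Mga were again higher than in 4-OHT livers. Of the 9 network genes tested, 4 were called, all higher, where 49.8% of 11854 genes were called and 36.2% were called higher. The count is thus near the share of all genes called. Mycn did not pass the filter on low values, which asked for an RPKM of at least 1 in 3 libraries. It was at 0.0472 to 0.0994 RPKM in MYC tumours, 0.0606 to 0.0983 in MYC+Ex3 tumours and 0.0735 to 0.516 in 4-OHT livers. The median log2 change was 0.19 over all genes tested and 0.39 over the 9, and the shift over all genes fell to 0.01 after rescaling by the median ratio. Under that rescaling Max and Mxi1 kept their calls, while Mxd3 and Mga lost theirs.

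Max ran from 4.69 to 7.40 RPKM, with a median of 5.20, in the 7 4-OHT livers and measured 8.55, 8.92 and 11.5 RPKM in the 3 MYC tumours. The groups did not overlap (log2 change 0.66 ± 0.140, limma adjusted p = 0.00155). Mxi1 ran from 1.61 to 2.35 RPKM, with a median of 2.15, in 4-OHT livers and measured 3.94, 3.24 and 4.21 RPKM in MYC tumours. It too was separate in all samples (0.68 ± 0.116, limma adjusted p = 0.000335), and it rested on at least 588 reads in each tumour.

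Mxd3 measured 1.19, 3.15 and 1.75 RPKM in MYC tumours and overlapped the 4-OHT livers, which ran from 0.623 to 1.48 RPKM with a median of 1.04. The tumour in the middle of that list, replicate 2, carried much of the change (0.56 ± 0.186, limma adjusted p = 0.0218), which was 0.31 without it (limma adjusted p = 0.160). The 4-OHT livers fall into 2 sets by the S14 and S15 of their titles, and Mxd3 was at 1.04 to 1.48 RPKM in S14 and 0.623 to 0.825 RPKM in S15. Against S14 alone the change was 0.39 (limma adjusted p = 0.143), and voom did not call it (limma adjusted p = 0.0526). Mga measured 4.96, 5.59 and 7.65 RPKM against 3.35 to 5.04 RPKM, median 4.38, in 4-OHT livers (0.42 ± 0.157, limma adjusted p = 0.0389). It lost its call in 6 of 8 alternatives, and without MYC tumour replicate 2 (limma adjusted p = 0.0559) or 3 (0.26, 0.232) or 4-OHT liver replicate 2 (0.0581), 4 (0.0651) or 6 (0.0679).

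The other network genes were not called in MYC tumours. Mxd4 measured 16.6, 9.43 and 7.88 RPKM, above the 4-OHT range of 9.52 to 14.9 RPKM in replicate 1 and below it in the others. Its log2 change was -0.11 (95% interval -0.50 to 0.28), and it was called lower without replicate 1 (-0.40, limma adjusted p = 0.0365). The log2 change was 0.09 for Mlx (-0.31 to 0.48), 0.34 for Mnt (-0.06 to 0.73) and 0.15 for Myc (-0.15 to 0.44).

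In MYC+Ex3 tumours 6 of the 9 genes tested were higher than in 4-OHT livers, with Mxd1 and Mnt joining Max, Mxd3, Mxi1 and Mga (60.6% of all genes called, 42.3% higher). The 6 calls among 9 genes are near the share of all genes called in either direction. These tumours are compared with the same 4-OHT livers as the MYC tumours. The median log2 change was 0.64 over the 9 genes and 0.23 over all genes tested. Max measured 12.97, 11.0 and 12.97 RPKM (0.99 ± 0.140, limma adjusted p = 3.75e-05) and was the most abundant network gene of these tumours, above Mlx and Mxd4. Its range did not overlap that of Mlx, the next in order, at 9.68 ± 1.18 RPKM. Mxd3 measured 3.16, 3.84 and 2.67 RPKM (1.08 ± 0.186, limma adjusted p = 0.000190), and Mxi1 4.12, 4.18 and 5.28 RPKM (0.88 ± 0.116, limma adjusted p = 2.02e-05). For these genes every MYC+Ex3 tumour lay above every 4-OHT liver. The proliferation genes summed to 49.2 to 82.6 RPKM in 4-OHT livers, 145 to 234 RPKM in MYC tumours and 218 to 264 RPKM in MYC+Ex3 tumours, and their part in the level of Mxd3 was not tested.

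Mxd1, an antagonist known to be raised when blood and epithelial cells differentiate, ran from 1.0997 to 1.74 RPKM, with a median of 1.41, in 4-OHT livers. It measured 4.32, 3.94 and 3.52 RPKM in the MYC+Ex3 tumours, on 507 to 732 reads, and did not overlap the livers. The log2 change was 1.04 ± 0.202 (limma adjusted p = 0.000514) and was called in all 8 alternatives and in each fit without 1 library. In MYC tumours Mxd1 measured 1.39, 4.33 and 1.39 RPKM, so that replicate 2 lay at the level of the MYC+Ex3 tumours and the others within the liver range. The change there was 0.39 ± 0.202 (limma adjusted p = 0.127), 0.00104 without replicate 2 (limma adjusted p = 0.995), and called at 0.58 without replicate 1 (0.0353) or replicate 3 (0.0497).

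Neutrophil markers were high in the same 4 tumours as Mxd1. The summed level of the 4 of 5 listed markers that were in the table (S100a8, S100a9, Ly6g, Mpo and Elane were listed) ran from 9.47 to 27.9 RPKM in 4-OHT livers. It was 10.2, 80.9 and 45.6 RPKM in MYC tumours 1 to 3, and 92.7, 112.5 and 88.6 RPKM in MYC+Ex3 tumours, with no marker at 0 in any group. MYC tumour 3 was above every liver in this sum while its Mxd1 was within the liver range. Macrophage markers summed to 26.7, 113.8 and 60.05 RPKM in MYC tumours and 48.6 to 59.7 RPKM in MYC+Ex3 tumours, against 109.5 to 148 RPKM in 4-OHT livers, which MYC tumour 2 overlapped. Other marker lists differed too. Erythroid markers summed to 46.1 to 54.5 RPKM in MYC+Ex3 tumours and 12.7 to 29.8 RPKM in 4-OHT livers. MYC tumours ran from 10.2 to 42.8 RPKM in this sum. In MYC+Ex3 tumours 5 of 7 endothelial, 5 of 8 stellate cell and fibroblast (1 higher) and 5 of 8 hepatocyte markers were called lower. So were 3 of 4 lymphocyte and 1 of 2 cholangiocyte markers tested, where 60.6% of all genes were called. In bulk tissue a change in the number of cells of a type and in RNA per cell cannot be told apart, and the part of neutrophils or other cells in the level of Mxd1 was not tested. At day 4 the same neutrophil sum ran from 9.12 to 180 RPKM over the 20 livers. The liver with the highest sum, WT replicate 4, also had the highest Mxd1 of the 20, at 5.34 RPKM. MYC replicate 5, the library with both Xist and Ddx3y, had the next highest, at 4.9997 RPKM, with a sum of 117 RPKM. Other livers went the other way. MYC replicate 3 and WT replicate 5, with sums of 155 and 110 RPKM, had Mxd1 at 4.01 and 3.58 RPKM. Ex3 replicates 2 and 5, with sums of 14.6 and 28.1 RPKM, had Mxd1 at 4.96 and 4.87 RPKM.

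Mnt, an antagonist present in most cell types, measured 1.37, 2.12 and 2.75 RPKM in MYC+Ex3 tumours against 0.644 to 1.61 RPKM, median 0.850, in 4-OHT livers. The groups overlapped at the lowest tumour. The log2 change was 0.64 ± 0.184 (limma adjusted p = 0.00801), 1.04 with a pseudocount of 0.1 and not called without MYC+Ex3 tumour replicate 3 (limma adjusted p = 0.0659). Mga was at 7.60, 4.35 and 6.73 RPKM (0.44 ± 0.157, limma adjusted p = 0.0256) and lost its call in 4 of 8 alternatives and without MYC+Ex3 tumour replicate 1 (0.30, 0.160) or 3 (0.107). Mxd4 was at 9.15, 8.38 and 8.18 RPKM against 9.52 to 14.9 RPKM, median 11.8, in 4-OHT livers, with every tumour below every liver. Its log2 change of -0.41 ± 0.182 was not called (limma adjusted p = 0.0631), but was called at -0.62 after rescaling (0.00705), at -0.63 with voom (0.00758) when only these groups were fitted (0.0121) and without 4-OHT liver replicate 6 (0.0472). The log2 change was -0.17 for Mlx (95% interval -0.56 to 0.22) and 0.32 for Myc (0.02 to 0.62, limma adjusted p = 0.0574), which was called when only these groups were fitted (0.0427) and without 4-OHT liver replicate 7 (0.0308).

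**Figure D3:**
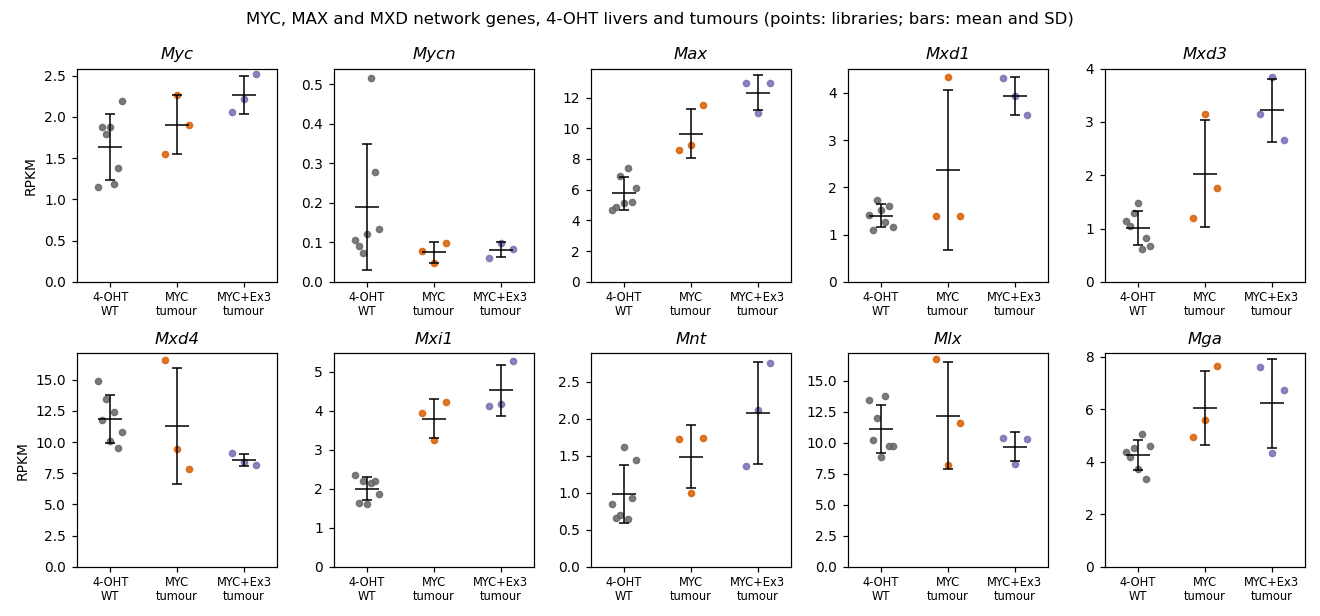
RPKM of each network gene (vertical axis, one scale per gene) in 7 WT livers after 4-OHT, 3 MYC tumours and 3 MYC+Ex3 tumours (horizontal axis), with points for libraries and bars for mean and SD. Mxd1 is at 3.52 to 4.32 RPKM in the MYC+Ex3 tumours, at 4.33 RPKM in 1 MYC tumour and below 1.75 RPKM in the other samples.

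Between MYC+Ex3 and MYC tumours 0 of the 9 genes were called (limma, 4.13% of all genes called), with 2 at an unadjusted p under 0.05 and 0 called by voom. The differences were 0.65 for Mxd1 (95% interval 0.14 to 1.17) and 0.52 for Mxd3 (0.05 to 0.99). Both were called without MYC tumour replicate 2, Mxd1 at 1.04 (limma adjusted p = 0.000471) and Mxd3 at 0.77 (0.0333).

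The effect of the alleles was then compared between arms, as the difference of log2 changes with a pseudocount of 0.1, because the arms differ in scale. For the MYC effect 0 of 10 network genes differed (limma, 4.2% of all genes called; 1 network gene at an unadjusted p under 0.05 and 0 called by voom). Mxd3 came nearest, with an effect smaller by 1.38 ± 0.433 log2 units in tumours (difference -1.38, limma adjusted p = 0.0659), and was called without MYC liver replicate 5 (-1.59, 0.0282) or MYC tumour replicate 2 (-1.73, 0.0203). For the MYC+Ex3 effect 2 genes differed, Mxd1 and Mxi1, both with a larger effect in tumours (17% of all genes called, 8.98% higher). Mxd1 differed by 1.66 ± 0.340 (limma adjusted p = 0.000965), called in all 6 alternatives and in each of 20 fits without 1 library. At day 4 Mxd1 had been at 2.61, 2.73, 3.55, 4.34 and 3.65 RPKM in MYC+Ex3 livers against 3.79, 3.76, 3.29, 5.34 and 3.58 RPKM in WT livers, with overlapping groups. Mxi1 differed by 0.59 ± 0.203 (limma adjusted p = 0.0411), a call lost in 5 of 6 alternatives. It was also lost without WT replicate 2 or 3, MYC+Ex3 liver replicate 3 or 4, 4-OHT liver replicate 2, 4 or 7 or MYC+Ex3 tumour replicate 2 or 3, with limma adjusted p from 0.0530 to 0.173 in these 9 of 20 fits. Mxd3 differed the opposite way, by -1.03 (95% interval -1.91 to -0.14, limma adjusted p = 0.101), and was called when only the groups compared were fitted (0.0490). The 2 calls among 10 genes are near the share of all genes. Tumour state, Cre driver and RPKM scale differ between the arms and cannot be told apart, and the labels do not give ages for the tumour arm.

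Ratios of RPKM within a library do not depend on its scale. They compare transcripts, and protein was not measured. Max per Mxd4, the partner against the most abundant antagonist, was 0.392 ± 0.0770 in WT, 0.454 ± 0.0540 in Ex3, 0.725 ± 0.172 in MYC and 0.772 ± 0.169 in MYC+Ex3 livers (SD, n = 5 each). In the tumour arm the 7 4-OHT livers gave 0.494 ± 0.0975, the 3 MYC tumours 0.973 ± 0.473 and the 3 MYC+Ex3 tumours 1.44 ± 0.137. The MYC tumours spread from 0.515 to 1.46 and overlapped the livers, which ran from 0.315 to 0.595, whereas the MYC+Ex3 tumours began at 1.31. Max per summed Mxd1, Mxd3, Mxd4, Mxi1 and Mnt ran from 0.235 to 0.344 in WT and from 0.378 to 0.619 in MYC livers, without overlap. In the tumour arm this ratio ran from 0.228 to 0.432 in 4-OHT livers and from 0.344 to 0.677 in MYC tumours, which overlapped, and from 0.490 to 0.586 in MYC+Ex3 tumours. Mxd1 per Mxd4 was 0.0657 ± 0.0213 in MYC+Ex3 livers against 0.0760 ± 0.0266 in WT, and 0.458 ± 0.0238 in MYC+Ex3 tumours against 0.121 ± 0.0297 in 4-OHT livers. The MYC tumours gave 0.0838, 0.459 and 0.177 for Mxd1 per Mxd4, the last 2 above every 4-OHT liver (0.0932 to 0.169). Myc per Max was 0.122 ± 0.0536 in WT and 0.104 ± 0.0197 in MYC livers, which overlapped. These ratios were not tested.

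**Figure D4:**
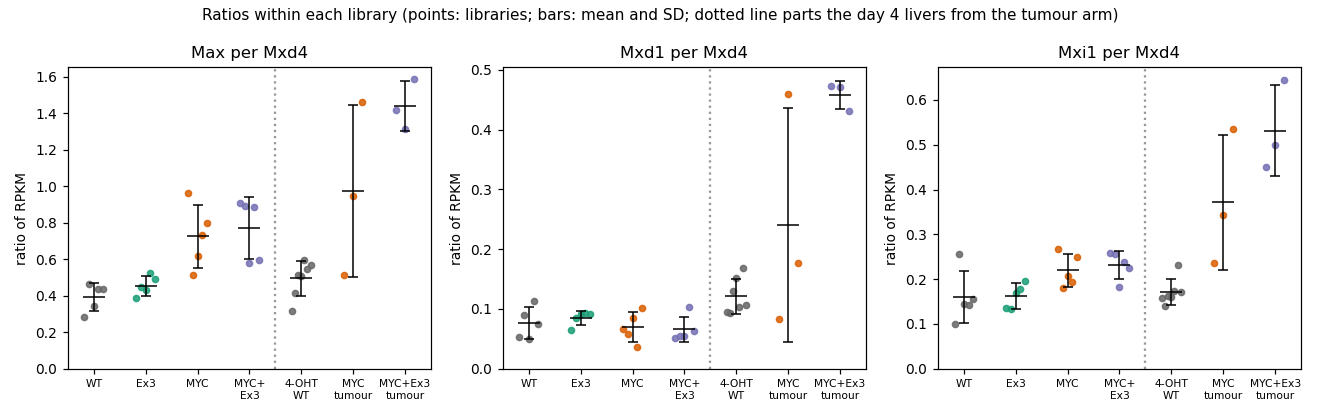
Ratios of RPKM within each library (vertical axes) for Max, Mxd1 and Mxi1 over Mxd4, in the 7 groups (horizontal axis), with points for libraries and bars for mean and SD. Max per Mxd4 is above 1.3 in each MYC+Ex3 tumour, and Mxd1 per Mxd4 is 0.430 to 0.472 in the MYC+Ex3 tumours and 0.459 in 1 MYC tumour.

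Genes that work with the network were read from lists of further family factors, corepressors, coactivators, stability factors and targets. In MYC livers 21 of 25 MYC target genes were higher and 0 lower, with a median log2 change of 1.15. The counts of all lists in these livers stand beside 16.9% of all genes called higher and a median of 0.07. Cad, an enzyme of pyrimidine synthesis, rose by 2.18 ± 0.350 (limma adjusted p = 0.000135), and Nop56, a ribosome biogenesis factor, by 2.03 ± 0.163 (3.52e-07). All 15 proliferation genes tested were higher, led by Ccnb1 and Cdc20 (4.64 and 4.53). Of 13 MYC coactivators 5 were higher and 0 lower, led by Ruvbl2, a helicase of chromatin remodellers (1.68), and Kat2a, a histone acetyltransferase (1.23).

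Among 10 SIN3 corepressor subunits, through which the MXD proteins act, 3 were higher in MYC livers and 0 lower, beside 16.9% of all genes higher. Sap30 rose by 1.12 ± 0.212 (limma adjusted p = 0.000691) and Rbbp7 by 0.75 ± 0.106 (3.65e-05), but the list's median of 0.07 equalled that of all genes tested. Of 10 subunits of the MGA complex, a list that includes Max, 4 were higher and 0 lower. Tfdp1, a partner of E2F factors, went from 17.2 ± 3.09 to 58.6 ± 18.3 RPKM (1.68), and L3mbtl2 rose by 0.95, a call lost among keratin-free libraries (limma adjusted p = 0.0791). Of 13 factors that act on MYC protein stability 4 were higher and 0 lower, beside the same 16.9%. They were led by Cip2a (listed as C330027C09Rik), an inhibitor of the phosphatase that marks MYC for decay, at 2.36, and by the kinase Aurka at 1.92. Among 6 further family factors 0 were higher and Mycl was lower, from 9.59 ± 3.58 to 5.22 ± 1.32 RPKM (-0.71 ± 0.235, limma adjusted p = 0.0339), a call lost with no filter (0.0547), when only these groups were fitted (0.0922) and without MYC replicate 1 or 4 or WT replicate 2, 3 or 5 (0.0690 to 0.1002). Of 3 targets of the MLX partners, Txnip was lower (-0.70, limma adjusted p = 0.0178), a call lost among keratin-free libraries (0.0559) and without MYC replicate 4 (0.0593) or WT replicate 4 (0.0521). In Ex3 livers 0 genes of these lists were called, where 0.132% of all genes were called. In MYC+Ex3 livers 21 of 25 MYC targets and 5 of 13 coactivators were higher, where 17.9% of all genes were higher. MGA complex subunits were higher there for 5 of 10 and stability factors for 5 of 13. SIN3 subunits were higher for 3 of 10, and all 15 proliferation genes were higher. In the same livers 2 of 3 MLX partner targets, 1 of 10 MGA complex subunits and 1 of 6 further family factors were lower.

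In MYC tumours 23 of 25 MYC targets were higher and 1, Ccnd2, was lower, beside a median of 1.06. Over all genes tested 36.2% were higher and the median was 0.19. Cad was higher by 1.73 and Dkc1, which modifies ribosomal RNA, by 1.71. Coactivators were higher for 8 of 13, again led by Ruvbl2 (1.42) and Kat2a (1.25), SIN3 subunits for 6 of 10, led by Sap30 (0.75) and Rbbp7 (0.72), and MGA complex subunits for 6 of 10, led by Tfdp1 (1.22) and Pcgf6 (1.12). Among the stability factors 6 of 13 were higher, led by Aurka (1.71) and Cip2a (1.42). All 15 proliferation genes were higher, led by Bub1 (1.91) and Aurkb (1.80). Among the further family factors Mycbp, a MYC-binding protein, was higher (0.75), and Mlxipl, the glucose-responsive MLX partner, fell from 16.3 ± 1.86 to 9.92 ± 1.79 RPKM (-0.67 ± 0.120, limma adjusted p = 0.000480). Of the 3 listed targets of the MLX partners, Pklr (-0.72, limma adjusted p = 0.0229) and Arrdc4 (-0.63, 0.00223) were lower and Txnip was not called. Pklr was not called without MYC tumour replicate 2 (0.156) or replicate 3 (0.145) or against either set of 4-OHT livers alone (0.0811 and 0.110). The call of Ccnd2 was lost against either set (0.0618 and 0.0852) and without MYC tumour replicate 1 (0.0661) or 3 (0.0503).

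MYC+Ex3 tumours had 23 of 25 MYC targets, 9 of 10 MGA complex subunits and 10 of 13 stability factors higher than 4-OHT livers, where 42.3% of all genes were higher. SIN3 subunits were higher for 6 of 10, coactivators for 8 of 13 and proliferation genes for 15 of 15. Of 6 further family factors 3 were higher and 2 lower. In the same tumours 1 MYC target was lower, and 0 of 3 MLX partner targets were called. Against MYC tumours 0 of 25 MYC targets and 0 of 15 proliferation genes were called in limma. Rbbp7 (0.74, limma adjusted p = 0.00989), the kinase Pim1 (1.03, 0.0171) and Arrdc4 (0.74, 0.0241) were higher. Each of these calls was lost when only these groups were fitted (limma adjusted p = 0.136, 0.202 and 0.189) and without MYC+Ex3 tumour replicate 3 (0.0641, 0.0992 and 0.122), and those of Pim1 (0.0795) and Arrdc4 (0.0586) also without replicate 2.

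Over the 20 day 4 libraries, the genes whose levels followed Mxd3 most closely among 12373 were Xrcc6, Spc24 and Kif22, with Pearson correlations of log2(RPKM + 1) of 0.963, 0.962 and 0.960. For Myc the closest were Mir1938, Zpr1 and Dclre1b, at 0.787, 0.776 and 0.728. These values describe libraries that share the split into groups with and without MYC. Mxd3 rested on 2 to 52 reads per library and Myc on 10 to 95.

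In MYC livers the authors' deposited table called 2, Max (log2 fold change 0.79) and Mxd3 (1.77), and in MYC+Ex3 livers 3, Max, Mxd3 and Mxi1. For MYC tumours the authors' deposited table called Max and Mxi1. For MYC+Ex3 tumours the authors' deposited table called 8 genes, among them Mxd1 at 1.26 and 3 with negative values, Mycn (-1.28), Mxd4 (-0.67) and Mlx (-0.41). The share of all genes called in the authors' table is not given here, so these counts are not read as particular to the network. In the limma fits 22.3% of all genes were called in MYC livers and 24.1% in MYC+Ex3 livers. For MYC and MYC+Ex3 tumours the limma shares were 49.8% and 60.6%.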

How the data were processed

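Total RNA from 33 mouse livers and liver nodules was sequenced as strand-specific TruSeq libraries, per the labels' protocols. The submitters' processing notes name TopHat2 2.0.8, SAMtools, featureCounts 1.4.5-p1, DESeq2 and the genome build mm9; the strand setting of the counting is not given in the sources used here. The deposited values are RPKM computed by the authors. The authors' deposited table also gives a log2 fold change and an adjusted p-value per comparison, used only where named. Of its columns 0 belonged to no sample of the series.

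Within a gene, RPKM values were whole multiples of what 1 read is worth. Whole reads were recovered for 100% of the 20485 genes above 0 somewhere (tolerance 0.001 reads), and 1186 genes were at 0 throughout. In simulated data recovery was exact for 100% of 2990 genes.

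Groups came from titles and genotype labels. The test was limma 3.58.1 (R 4.3.3) on log2(RPKM + 1), trended and two-sided, with Benjamini-Hochberg adjustment over all genes with an RPKM of at least 1 in 3 libraries; calls are at adjusted p under 0.05. Fold changes on this scale understate low genes. Day 4 and tumour-arm libraries were fitted separately, and all 33 together, with a pseudocount of 0.1, for differences between arms, giving 11 comparisons. Simulated 2-fold changes were recovered for 72% of genes in MYC against WT livers (13606 genes) and 74% in MYC tumours against 4-OHT livers (11561 genes). The simulation gave every gene the same dispersion and changed only genes above a floor of mean reads. These rates therefore need not hold for network genes with few reads or a wide spread.

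Alternatives were the other pseudocount, no filter, rescaling of each library by its median ratio, only the groups compared, limma voom on recovered reads, a sex covariate read from Xist and Ddx3y, a keratin term or only libraries with or without keratins (day 4), only S14 or S15 4-OHT livers (tumour arm), and leaving out each library. The network genes and all lists were chosen with earlier results of these data known. From each list the text names up to 2 called genes per direction by size of change, in MYC against WT livers, MYC tumours against 4-OHT livers and MYC+Ex3 against MYC tumours. For Myc and the most changed member it names the 3 most correlated genes, predicted genes and clones left out. The authors used mm9; promoter sequences are RefSeq's on GRCm38.p6. No 2 libraries of a group were duplicates: over 67 pairs the lowest chi-square per gene was 2.95.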

Additional observations from a re-analysis of the deposited data

Results flagged for a closer look

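In 6 of 50 combinations of network gene and group, 1 library lay far from the rest of its group by Dixon's criterion, which chance meets in about 1 in 20. The tumour groups, of 3 libraries each, are not among the 50. Mxd1 in MYC tumour replicate 2, at 4.33 RPKM beside 1.39 and 1.39 RPKM, was therefore not screened. Mycn was at 9.43 RPKM in MYC liver replicate 5, the library with both Xist and Ddx3y, and at 1.76 RPKM in MYC+Ex3 liver replicate 3. Mxd1 was at 5.34 RPKM in WT liver replicate 4 and Mxd3 at 2.71 RPKM in Ex3 liver replicate 4. Mxi1 was low in MYC liver replicate 3, at 9.84 RPKM, and Mlx was low in Ex3 liver replicate 3, at 34.0 RPKM.

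The test of the MYC+Ex3 effect between the arms called 2 of 10 network genes, near the 17% of all genes called. Mxd1 differed by 1.66 log2 units (limma adjusted p = 0.000965) and Mxi1 by 0.59 (limma adjusted p = 0.0411), with the larger effect in tumours for both. The call of Mxi1 was lost in 5 of 6 alternatives and in 9 of 20 fits without 1 library.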

How the results depend on the processing

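Of the 338 fits of 43 changes of network genes under alternatives other than leaving out a library, 300 kept direction and side of the threshold, 31 lost a call, 6 gained one and 1 turned direction. The 43 include changes not called in the main fit, which could not lose a call, so the share lost among called changes is larger. The number of network genes called in MYC against WT livers was 2 in place of 4 after rescaling, with only the groups compared and among keratin-free libraries. In MYC+Ex3 against WT livers it was 2 among keratin-free and 2 among keratin-bearing libraries. In MYC tumours it was 2 after rescaling, with voom and against S14 livers, and 2 to 6 without 1 library. It was 3 with a sex covariate, which lost Mga (limma adjusted p = 0.102), and 3 against S15 livers. Between MYC+Ex3 and MYC tumours it was 0 to 2 without 1 library. For the MYC effect between arms it was 0 to 1, and for the MYC+Ex3 effect 1 in place of 2 with a pseudocount of 1, no filter, rescaling or voom, and 1 to 2 without 1 library. The cause was not tested. The change of Mxd1 in MYC livers, -0.09, turned to 0.14 among keratin-free libraries and ran from -0.19 to 0.029 without 1 library. The change of Mxd4 in MYC tumours, -0.11, ran from -0.40 without MYC tumour replicate 1 to 0.090 without replicate 3.

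Over all genes, calls in MYC against WT livers numbered 3047 (2313 higher, 734 lower), 1882 higher and 1302 lower after rescaling, and 1249 among keratin-free libraries. Rescaling turned 2455 higher and 846 lower into 2052 and 1302 in MYC+Ex3 against WT livers, 2249 and 644 into 1940 and 952 against Ex3 livers, 4286 and 1621 into 3212 and 2764 in MYC tumours, and 5011 and 2178 into 4018 and 3211 in MYC+Ex3 tumours. Voom gave 3889 and 2382, and 4333 and 2985, in these tumours. For the difference of the MYC effect, 250 higher and 333 lower became 246 and 531 after rescaling and 244 and 642 with voom, and for that of the MYC+Ex3 effect 1246 and 1110 became 1046 and 1480, and 885 and 1675. Calls between MYC+Ex3 and MYC tumours fell from 489 to 70 with only these groups and ran from 199 (without MYC+Ex3 tumour replicate 3) to 764 (without MYC tumour replicate 2) without 1 library. Calls in Ex3 livers numbered 18, 31 with a sex covariate and 2 within either keratin set, and 5 to 19 without 1 library (5 without Ex3 replicate 3). Calls between MYC+Ex3 and MYC livers numbered 26, and 6 to 11 with a pseudocount of 0.1, no filter, only the groups compared or keratin-free libraries, and 7 (without MYC replicate 1) to 37 (without MYC+Ex3 replicate 4) without 1 library. With only keratin-bearing libraries, MYC+Ex3 against Ex3 gave 1668 calls in place of 2893. With a pseudocount of 1 the differences gave 337 calls in place of 583 and 1531 in place of 2356, and the first gave 372 with only the groups compared and 886 with voom. Without 1 library they ran from 351 (MYC tumour replicate 3) to 989 (MYC tumour replicate 1), and the second fell to 1456 without MYC+Ex3 tumour replicate 3.

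Fits with only keratin-bearing libraries were not run for comparisons with MYC livers, of which 1 bore keratins. No paired analysis was possible because the labels give no shared replicate numbers. Depth limited Mxd3 and Mycn, which had fewer than 10 reads in some day 4 libraries.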
